A study of Mus musculus with 2 samples.

Results

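This section describes 9 features that count segments of the γ and δ T-cell receptor genes, out of 31053 features: *Trdc* and *Trdv4* of the δ chain, and *Tcrg-C1*, *Tcrg-C2*, *Tcrg-C4*, *Tcrg-V1*, *Tcrg-V4*, *Tcrg-V5* and *Tcrg-V6* of the γ chain. They were taken by name and read in T cells, chosen as cells with at least 200 genes, at most 10% mitochondrial unique molecular identifiers (UMIs, which count transcripts rather than reads), and at least 2 UMIs of *Trdc* or at least 2 UMIs of *Cd3d*, *Cd3e* and *Cd3g* summed. This gate held 405 dermal cells, 8.53% of the 4747 that passed the filters (interval 7.75 to 9.36%), and 1035 epidermal cells, 24.8% of 4173 (23.5 to 26.1%), and since the layers were sorted differently these shares were not compared. *Trdc* is part of the gate, so its level in gated cells is a description.

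Both libraries came from wild type C57BL/6 mice whose skin was treated for 5 days with imiquimod (IMQ), a Toll-like receptor agonist that inflames skin, and neither an untreated library nor another genotype was analysed here. The labels give an age of 10 weeks, name the ear and describe live cells sorted after enzyme digestion, while the methods name younger male mice and load all live epidermal cells but CD45+ live dermal cells. The dermal library held 5376 barcodes and 41258087 UMIs, with a median of 6086 per barcode, and the epidermal library 5258 barcodes and 108768396 UMIs, with a median of 16965. The libraries shared 45 barcode sequences, of which 0 belonged to gated cells. With 1 library per tissue and cells that are not replicates, no test was possible, and every interval below is an exact 95% interval that covers counting error only.

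A γδ T-cell receptor pairs a γ chain with a δ chain, and in each chain a variable (V) segment is joined by recombination to a joining segment and spliced to a constant (C) segment. The V segment therefore marks the kind of γδ T cell. Dendritic epidermal T cells, which reside between keratinocytes, are known for a nearly uniform receptor of Vγ5 with the δ segment *Trdv4*, whereas dermal γδ T cells that make IL-17 are known to use mostly Vγ4 or Vγ6, and Vγ6 too pairs with *Trdv4*. In the γ locus the segments *Tcrg-V4*, *Tcrg-V6* and *Tcrg-V5* lie before *Tcrg-C1*, *Tcrg-V1* lies before *Tcrg-C4*, and *Tcrg-C2* lies in the opposite orientation. A 3′ library captures transcripts at the poly(A) end, which belongs to the constant segment, so V segments far from that end are seldom counted.

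The sequences below show what separates the features, since a read can be assigned to a segment only where the segment differs from its relatives. Positions (build GRCm38) and sequences were read from GENCODE release M21. The first set gives the last 90 coding bases of each V segment, all on the plus strand, with capitals from the cysteine codon at which the junctional region of the receptor begins. They lie at chr13:19340365-19340454 for *Tcrg-V1*, chr13:19185417-19185506 for *Tcrg-V4*, chr13:19192636-19192725 for *Tcrg-V5*, chr13:19190840-19190929 for *Tcrg-V6* and chr14:54075426-54075515 for *Trdv4*.
Tcrg-V1: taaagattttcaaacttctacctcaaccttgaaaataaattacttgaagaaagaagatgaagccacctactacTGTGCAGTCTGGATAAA
Tcrg-V4: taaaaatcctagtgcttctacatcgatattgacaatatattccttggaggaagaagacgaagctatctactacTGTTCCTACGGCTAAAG
Tcrg-V5: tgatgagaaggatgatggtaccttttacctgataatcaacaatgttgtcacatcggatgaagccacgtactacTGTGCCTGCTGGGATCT
Tcrg-V6: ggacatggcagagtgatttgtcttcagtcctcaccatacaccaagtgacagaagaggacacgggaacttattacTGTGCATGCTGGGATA
Trdv4: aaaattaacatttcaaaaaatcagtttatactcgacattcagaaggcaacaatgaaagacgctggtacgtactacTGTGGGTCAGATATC
Over the whole segments, the γ V members were 62.6 to 74.6% identical to each other, and their longest shared run was 14 bases, so that reads within them could be told apart. The exception was *Tcrg-V1*, which was 94.9% identical to *Tcrg-V3*, with a shared run of 104 bases, and counts of these 2 segments are uncertain.

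The second set gives the first 150 bases of the first constant exon, with capitals where a base differs from *Tcrg-C1*, because the results below turn on the share of *Tcrg-C2*. They lie at chr13:19214103-19214252 on the plus strand for *Tcrg-C1*, at chr13:19307402-19307551 on the minus strand for *Tcrg-C2* and at chr13:19344558-19344707 on the plus strand for *Tcrg-C4*.
Tcrg-C1: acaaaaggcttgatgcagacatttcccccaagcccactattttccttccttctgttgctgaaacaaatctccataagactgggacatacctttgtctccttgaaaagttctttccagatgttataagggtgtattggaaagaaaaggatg
Tcrg-C2: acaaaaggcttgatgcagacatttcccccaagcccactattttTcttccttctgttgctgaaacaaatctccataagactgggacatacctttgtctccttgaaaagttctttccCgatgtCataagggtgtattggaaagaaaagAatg
Tcrg-C4: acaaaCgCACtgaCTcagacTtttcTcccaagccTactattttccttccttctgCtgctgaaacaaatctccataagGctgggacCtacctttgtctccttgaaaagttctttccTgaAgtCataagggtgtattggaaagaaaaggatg
In this stretch *Tcrg-C2* differed from *Tcrg-C1* at 4 bases and *Tcrg-C4* at 15. Over the transcripts, *Tcrg-C1* and *Tcrg-C2* were 95.6% identical with a longest shared run of 104 bases, and 17.9% of the 50-base windows of *Tcrg-C1* occurred unchanged in *Tcrg-C2*. In their last 400 bases, nearest the poly(A) end, the 2 were 93.25% identical, again with a shared run of 104 bases. *Tcrg-C3*, which is no member but is counted among γ constant UMIs, was 97.1% identical to *Tcrg-C1* with a shared run of 122 bases. *Tcrg-C4* shared none of its 50-base windows with *Tcrg-C1* and was 73.4% identical to it. How reads that match both *Tcrg-C1* and *Tcrg-C2* were counted was not tested, so the split between these 2 segments is less certain than that of *Tcrg-C4*.

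As whole genes, the members were matched by identifier. *Trdc* (ENSMUSG00000104876) lies at chr14:54142851-54148868 on the plus strand and ends in a last exon of 3403 bases, almost all of it 3′ untranslated. *Trdv4* (ENSMUSG00000076867) lies before it at chr14:54074905-54075515. *Tcrg-C1* (ENSMUSG00000076749) lies at chr13:19214103-19217024, *Tcrg-C2* (ENSMUSG00000076752) at chr13:19304649-19307551 and *Tcrg-C4* (ENSMUSG00000076757) at chr13:19344558-19352756, each with a last exon of 549 to 556 bases. *Tcrg-V4* (ENSMUSG00000076745), *Tcrg-V6* (ENSMUSG00000076746) and *Tcrg-V5* (ENSMUSG00000076747) begin 29129, 23747 and 21825 bases before *Tcrg-C1*. *Tcrg-V1* (ENSMUSG00000076755) begins 125886 bases beyond the start of *Tcrg-C1*.

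The gate held different cells in the 2 layers. UMIs of *Trdc*, *Cd3d*, *Cd3e* and *Cd3g* per 1000000 UMIs of the cell (counts per 1000000, CPM) split the epidermal cells into separate groups, with 494 cells under 300 CPM, 16 between 300 and 1000, 70 between 1000 and 5000 and 455 at 5000 or more. The low group had a median of 41159.5 UMIs and 2.81% of its UMIs in keratin genes, and the high group a median of 2328 UMIs. Dermal cells did not split, with 55, 85, 235 and 30 cells in the same ranges. Cells at 1000 CPM or more, called receptor-rich below, numbered 265 in dermis (65.4% of the gate) and 525 in epidermis (50.7%). *Ptprc*, which encodes CD45, was found in 81.1% and 67.8% of them, and in 75% of the 140 other dermal but 6.47% of the 510 other epidermal gated cells, whose median was 40893 UMIs. The threshold of 1000 was set after the values were seen. At the edge of the gate, 57 epidermal and 8 dermal cells had exactly 2 *Trdc* UMIs and no more than 1 of the *Cd3* genes, and 1206 and 592 cells lay just outside with 1 *Trdc* UMI or 1 *Cd3* UMI.

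**Figure D1:**
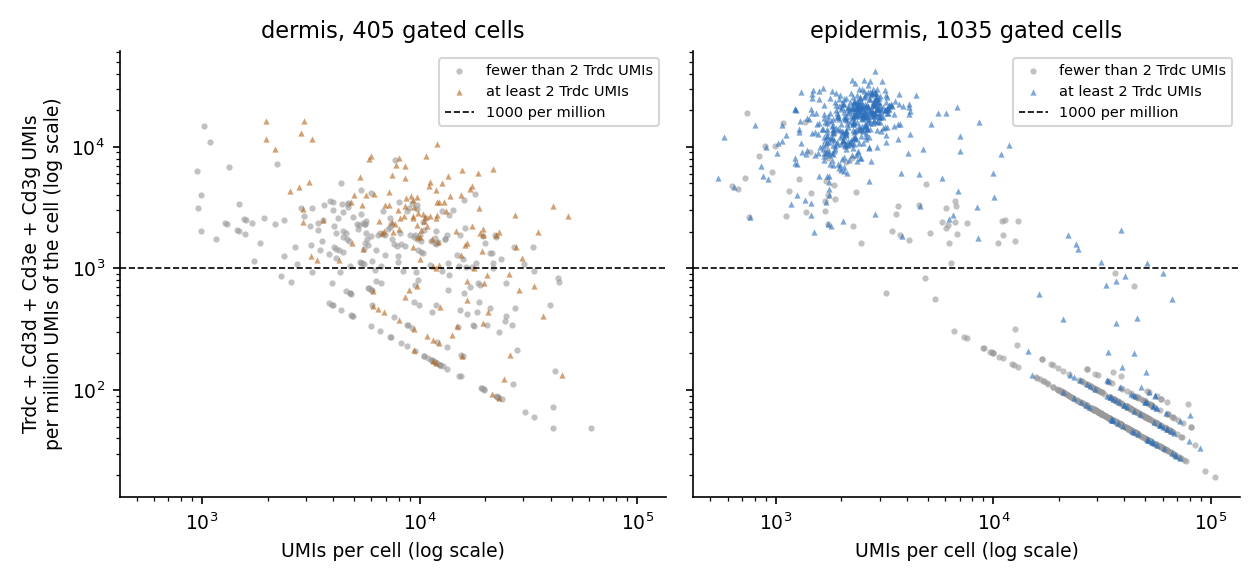
Each point is 1 gated cell, with its UMIs on the horizontal and its UMIs of *Trdc*, *Cd3d*, *Cd3e* and *Cd3g* in CPM on the vertical axis, both on a log scale, for dermis on the left and epidermis on the right. Triangles are cells with at least 2 *Trdc* UMIs and circles the others. The epidermal cells form a group above 5000 CPM and another below 300 with far more UMIs per cell, while the dermal cells form 1 spread around the dashed line at 1000.

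Among receptor-rich cells, at least 2 *Trdc* UMIs were found in 107 of 265 dermal cells (40.4%, 34.4 to 46.6%) and 466 of 525 epidermal cells (88.8%, 85.7 to 91.3%). These are called *Trdc*+ cells below. No *Trdc* UMI was found in 147 dermal and 33 epidermal receptor-rich cells. Markers were then read in the *Trdc*+ cells, where detected means at least 1 UMI over the group. All 8 T cell markers were detected in both layers, but *Cd3d*, *Cd3e* and *Cd3g* had been used to choose the cells. These genes are therefore a description and no check of the label. Of 5 natural killer cell markers 2 were detected in dermis and 1 in epidermis. In the co-receptor list, *Cd8a* and *Cd8b1* were at 0 in both layers. *Cd4*, *Foxp3*, *Cd5* and *Cd27* were found in 3, 1, 3 and 4 dermal cells and in 0, 0, 3 and 6 epidermal ones. Markers of other cells were present too. In dermal *Trdc*+ cells 6 macrophage markers, all detected, summed to 1134 CPM and 5 dendritic or Langerhans cell markers to 1692. There 4 neutrophil markers summed to 3594 CPM and 4 fibroblast markers to 1273. In epidermal *Trdc*+ cells the sums were 10599 for 6 keratinocyte, 13135 for 4 neutrophil and 515 for 5 dendritic or Langerhans cell markers. The keratinocyte genes *Krt5*, *Krt1* and *Krtdap* were at 0 in the dermal cells, and the macrophage markers summed to 22.2 CPM in the epidermal ones. The part of these other transcripts in the results below was not tested.

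The constant segments carried most of the counts. Over all gated cells, *Trdc* had 1753 UMIs in 161 dermal cells and 6553 UMIs in 668 epidermal cells, 376 and 286 CPM, 1.32-fold higher in dermis (1.25 to 1.39). *Tcrg-C1* had 543 UMIs in 135 cells and 2506 in 533 cells, 117 and 109 CPM, with a ratio of 1.07 whose interval of 0.969 to 1.17 held 1. *Tcrg-C4*, the constant segment behind *Tcrg-V1*, had 83 UMIs in 41 cells and 235 in 175 cells, a ratio of 1.74 (1.34 to 2.24). *Tcrg-C2* stood apart, with 171 UMIs in 73 dermal cells and 165 in 118 epidermal cells, 36.7 against 7.20 CPM, 5.10-fold higher in dermis (4.09 to 6.35). Of the 6 members with at least 20 UMIs in both layers together, *Tcrg-C2* alone was at least 2-fold higher in dermis, against 24.6% of the 12454 genes tested, and *Tcrg-V5* alone at least 2-fold higher in epidermis, against 21.5%. The latter rests on 1 dermal and 23 epidermal UMIs, and the interval of its 4.68-fold ratio held 1 (0.760 to 193). *Trdv4* was 1.11-fold higher in dermis, with an interval of 0.762 to 1.58. The median log2 ratio was 0.28 over these members and -0.00 over all genes. A 3′ library gives 1 UMI per captured transcript end, so levels were ordered without a length correction. In dermis *Trdc* gave 67.6% of the members' UMIs, followed by *Tcrg-C1* with 20.9%, *Tcrg-C2* with 6.59%, *Tcrg-C4* with 3.20% and *Trdv4* with 39 of 2593 UMIs. In epidermis the order was *Trdc* with 67.8%, *Tcrg-C1* with 25.9%, *Tcrg-C4* with 2.43%, *Trdv4* with 1.79% and *Tcrg-C2* with 1.71%, the last 2 of them with overlapping intervals of their CPM.

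These ratios over the whole gate mix T cells with the deep, *Cd3*-poor epidermal cells. In *Trdc*+ cells, which were chosen on *Trdc* and *Cd3* transcripts but not on the other members, *Trdc*, *Trdv4*, *Tcrg-C1* and *Tcrg-C4* were higher in epidermis and *Tcrg-C2* was nearly even. *Trdc* itself stood at 1319 CPM in dermis and 4589 in epidermis, 3.48-fold higher in epidermis (3.29 to 3.68). *Tcrg-C1* stood at 348 and 1679 CPM, 4.83-fold higher in epidermis (4.35 to 5.37). *Tcrg-C4* was 3.60-fold higher in epidermis (2.65 to 4.96) and *Trdv4* 3.85-fold (2.66 to 5.70). *Tcrg-V5*, with 1 and 20 UMIs, was 18.0-fold higher in epidermis (2.88 to 746). *Tcrg-C2* did not follow, at 96.2 and 107 CPM, 1.11-fold higher in epidermis with an interval of 0.868 to 1.43. In this comparison 5 of the 6 members tested were at least 2-fold higher in epidermis, where 26% of 8071 genes were, and 0 were at least 2-fold higher in dermis, where 8.19% were. The median log2 ratio was -1.88 over these members and -0.46 over all genes. The count and the median of the members include *Trdc*, which was used to choose the cells. They also include *Tcrg-V5*, which reached 20 UMIs through its epidermal counts alone. Both are therefore a description.

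The cells differed more in total UMIs than in receptor UMIs per cell. *Trdc*+ cells had a median of 9796 UMIs in dermis and 2352.5 in epidermis, but *Trdc* UMIs per cell ranged from 2 over a median of 9 to 79 in dermis and from 2 over a median of 11 to 80 in epidermis. *Tcrg-C1* ranged from 0 over a median of 2 to 33 per dermal cell and from 0 over a median of 4 to 21 per epidermal cell. The 5 richest cells held 19.7% of the dermal and 5.28% of the epidermal *Trdc* UMIs. Relative to the δ chain, *Tcrg-C1* gave 26.4 UMIs per 100 *Trdc* UMIs in dermis (23.9 to 29.0) and 36.6 in epidermis (35.1 to 38.1), and these intervals did not overlap.

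**Figure D2:**
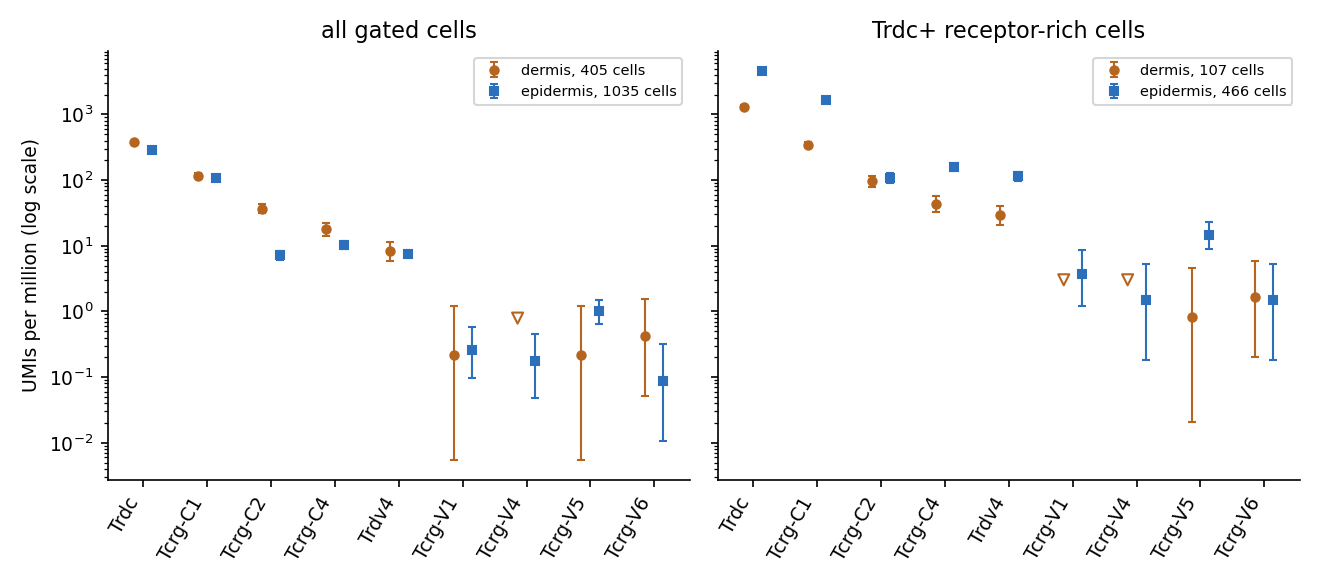
CPM of each member on a log axis, over all gated cells on the left and *Trdc*+ receptor-rich cells on the right, with bars for exact 95% counting intervals and open triangles at the upper limit for members with 0 UMIs. On the left the dermal circle lies well above the epidermal square for *Tcrg-C2* and close to it for *Trdc*, *Tcrg-C1*, *Tcrg-C4* and *Trdv4*, and on the right the squares of these 4 lie above the circles while the bars of *Tcrg-C2* overlap.

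The share of cells with a UMI changed with the depth of the cells. Of the *Trdc*+ cells, 76.6% in dermis and 91.8% in epidermis held *Tcrg-C1*, and 29.9% and 79.4% did so once each cell was thinned to 1000 UMIs, which left out 9 epidermal cells. *Tcrg-C2* was found in 46.7% and 21.9% unthinned but in 8.41% (3.92 to 15.4%) and 11.2% (8.42 to 14.4%) thinned. As background, 3.48% of 1237 dermal macrophage-like cells outside the gate (median 10306 UMIs) held *Trdc*, as did 16.0% of 2449 epidermal keratinocyte-like cells (median 31743 UMIs), each with 1 UMI, as the gate demands. *Tcrg-C1* was found in 0.728% and 9.02% of the same cells and *Tcrg-C2* in 0.404% and 0.490%. At 1000 UMIs per cell these *Trdc* shares fell to 0.243% and 0.490%. In epidermal gated cells below the threshold, *Trdc* was found in 34.5% and, thinned, in 2.16%.

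Against the other cells of their library, gated cells were richer in every member that reached 20 UMIs. The γ constant segments were 42.4 to 109-fold higher in dermal gated cells and 33.7 to 42.2-fold in epidermal ones, *Trdv4* 29.9-fold and 21.4-fold, and *Tcrg-V5* 16.5-fold in epidermis (6.13 to 55.5). At least 2-fold higher were 5 of 5 members tested in dermis, where 10.7% of 13295 genes were, and 6 of 6 in epidermis, where 5.23% of 13467 genes were. The gate used *Trdc*, which is counted among them. Several members reached 20 UMIs only through the gated cells. The other cells held 10 *Trdv4*, 12 *Tcrg-C2* and 15 *Tcrg-C4* UMIs in dermis and 14 *Tcrg-C2* and 5 *Tcrg-V5* UMIs in epidermis. They also held at most 1 *Trdc* UMI and 1 *Cd3* UMI each, as the gate demands. The counts of members are therefore a description.

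V segments of the γ chain were counted rarely, at 0.749 UMIs per 100 γ constant UMIs in the dermal gate (0.275 to 1.63) and 1.20 in the epidermal gate (0.839 to 1.68). The epidermal gate held 35 γ V UMIs in 33 cells. *Tcrg-V5*, the segment of dendritic epidermal T cells, gave 23 of them (65.7%, 47.8 to 80.9%). *Tcrg-V1* gave 6 UMIs in 5 cells, *Tcrg-V4* gave 4 in 4 cells and *Tcrg-V6* gave 2 in 2 cells, while *Tcrg-V3* and *Tcrg-V7*, which are no members, gave 0. The dermal gate held 6 γ V UMIs in 5 cells, namely 2 of *Tcrg-V6* in 1 cell, 2 of *Tcrg-V3*, 1 of *Tcrg-V5* and 1 of *Tcrg-V1*. *Tcrg-V4* was found in 0 of 405 dermal gated cells, which allows a share of up to 0.741% of cells with a UMI and sets no limit on cells that use the segment. With 6 UMIs the dermal makeup cannot be told from many others, since the interval of the *Tcrg-V5* share ran from 0.421 to 64.1%, and it met that of the epidermal share.

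Each cell was given the γ V segment with the most UMIs, at least 1. This named 5 dermal cells, 1.23% of the gate (0.402 to 2.86%), and 32 epidermal cells, while 1 more epidermal cell held 1 UMI each of *Tcrg-V4* and *Tcrg-V5*. The 22 epidermal *Tcrg-V5* cells included 20 receptor-rich cells, all of them *Trdc*+, with medians of 2419 UMIs and 15 *Trdc* UMIs. The other 2 lay among the deep cells, with 38068 and 38403 UMIs and 0 and 1 *Trdc* UMIs. Among cells that passed the filters but lay outside the gate, 5 more *Tcrg-V5* UMIs lay in epidermal cells, 3 of them in keratinocyte-like cells, and 3 *Tcrg-V4* UMIs and 1 *Tcrg-V6* UMI in dermal cells, 2 of the *Tcrg-V4* UMIs in macrophage-like cells. Cells that failed the filters held 1 *Tcrg-V1* and 1 *Tcrg-V6* UMI in dermis and 1 *Tcrg-V6* UMI in epidermis.

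The few V-bearing dermal cells can be described singly. The *Tcrg-V6* cell held 12 *Trdc*, 3 *Tcrg-C1*, 0 *Trdv4* and 8 *Cd163l1* UMIs. The *Tcrg-V5* cell held 34 *Trdc*, 8 *Tcrg-C1*, 1 *Trdv4* and 7 *Cd163l1* UMIs. *Cd163l1* encodes a scavenger receptor of IL-17-producing γδ T cells that has been tied to Vγ6, and the related gene *5830411N06Rik* has been tied to Vγ4. A *Tcrg-V3* cell held 13 *Trdc* and 15 *5830411N06Rik* UMIs, the other *Tcrg-V3* cell 0 *Trdc* and 1 *Trac* UMI, and the *Tcrg-V1* cell 1 *Trdc* and 7 *Trac* UMIs, so 3 of the 5 cells were *Trdc*+. All 5 dermal cells held 0 *Il17a* UMIs, the *Tcrg-V6* cell included. Among epidermal cells, 1 of the 2 *Tcrg-V6* cells held 48 *Il17a* UMIs and the other 0, and all 22 *Tcrg-V5* cells held 0.

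The δ chain V segment *Trdv4* was counted more often, with 39 UMIs in 22 dermal and 173 in 139 epidermal gated cells. In *Trdc*+ cells it gave 2.24 UMIs per 100 *Trdc* UMIs in dermis (1.57 to 3.11) and 2.48 in epidermis (2.10 to 2.91), and the intervals overlapped. The share of *Trdc*+ cells that held it was 17.8% in dermis and 26.4% in epidermis and, thinned, 3.74% and 12.0%, against 0.323% of macrophage-like and 1.18% of the keratinocyte-like background unthinned. The δ V features numbered 16 and include *Trav* segments with a -dv name, which are named for both the α and δ chains. UMIs of these *Trav* segments need not come from a δ chain. Of the UMIs of all 16, *Trdv4* gave 36 of 43 in dermal *Trdc*+ cells (83.7%, 69.3 to 93.2%). In epidermal ones it gave 154 of 156 (98.7%, 95.4 to 99.8%). The dermal remainder came from 5 other features with 1 or 2 UMIs each, among them 2 of *Trdv5*, a segment on the minus strand that overlaps the 3′ end of *Trdc* by 207 bases.

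In epidermis, *Trdv4* went with *Tcrg-V5* in the same cells. It was found in 13 of 20 *Trdc*+ cells with a *Tcrg-V5* UMI (65.0%, 40.8 to 84.6%) and in 110 of 446 without one (24.7%, 20.7 to 28.9%). Cells with the *Tcrg-V5* UMI also held more *Trdc*, with a median of 15 against 11 UMIs, and the part of this in the difference was not tested. Of 8 epidermal *Trdc*+ cells with another γ V segment alone, 2 held *Trdv4* (25%, 3.19 to 65.1%). *Kir3dl1* was found in 25% of cells with and 28.3% of cells without a *Tcrg-V5* UMI, and *Xcl1* in 30.0% and 31.6%.

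**Figure D3:**
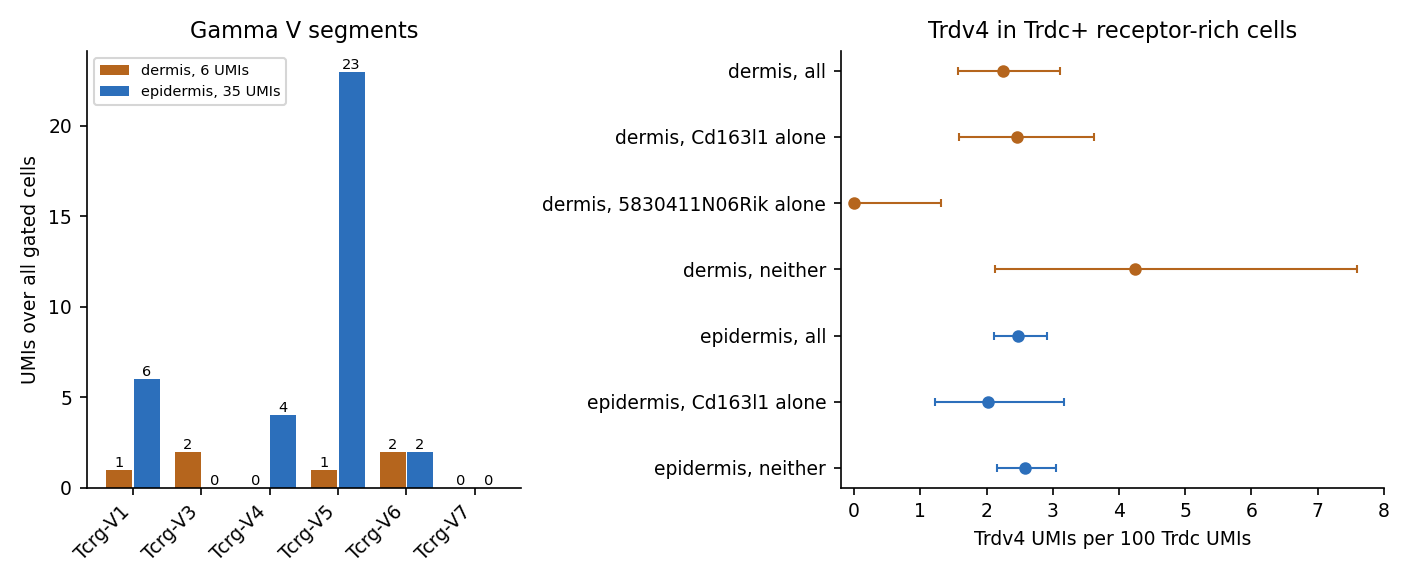
On the left, UMIs of each γ V segment summed over all gated cells, with the count above each bar. On the right, *Trdv4* UMIs per 100 *Trdc* UMIs in *Trdc*+ receptor-rich cells with exact 95% intervals, by layer and by the scavenger receptor genes found in the cell. *Tcrg-V5* gave 23 of 35 epidermal UMIs against 1 of 6 dermal, and dermal cells with *5830411N06Rik* alone are at 0 where the other 6 groups drawn lie above 2. Dermal cells with both genes and epidermal cells with *5830411N06Rik* alone, at 0 for 47 and 31 *Trdc* UMIs, are not drawn.

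The makeup of γ constant UMIs differed between the layers. Which constant segment the receptor of a cell used was not tested. Of 595 γ constant UMIs in dermal *Trdc*+ cells, 2 of them of *Tcrg-C3*, *Tcrg-C1* gave 71.1% (67.3 to 74.7%), *Tcrg-C2* 19.7% (16.5 to 23.1%) and *Tcrg-C4* 8.91% (6.74 to 11.5%). Of 2628 UMIs in epidermal ones, *Tcrg-C1* gave 86.4%, *Tcrg-C2* 5.52% (4.68 to 6.46%) and *Tcrg-C4* 8.07%. The *Tcrg-C2* intervals lay apart, while those of *Tcrg-C4* overlapped. Without the dermal *Trdc*+ cell richest in *Tcrg-C2*, its dermal share was 19.1%. Over all gated cells the *Tcrg-C2* share was 21.3% in dermis and 5.68% in epidermis. Among dermal receptor-rich cells with no *Trdc* UMI, which held 110 γ constant UMIs, *Tcrg-C2* gave 30.0% (21.6 to 39.5%).

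Many cells held transcripts of more than 1 constant segment. UMIs of at least 2 were found in 60 of 107 dermal *Trdc*+ cells (56.1%) and 219 of 466 epidermal ones (47.0%). *Tcrg-C1* with *Tcrg-C2* and no *Tcrg-C4* was the most frequent dermal pattern, in 31 cells, ahead of *Tcrg-C1* alone in 23, while *Tcrg-C1* alone led in epidermis with 210 cells and *Tcrg-C1* with *Tcrg-C4* followed with 121. None was found in 18 dermal and 28 epidermal cells. In the 22 epidermal cells with *Tcrg-V5*, which lies before *Tcrg-C1*, 113 of 132 γ constant UMIs were of *Tcrg-C1* (85.6%), 8 of *Tcrg-C2* and 11 of *Tcrg-C4*, shares within 1 percentage point of those in all epidermal *Trdc*+ cells.

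Since γ V segments were seldom counted, the dermal *Trdc*+ cells were also split by *Cd163l1* and *5830411N06Rik*, a split chosen after the values were seen. *Cd163l1* alone was found in 44 cells, *5830411N06Rik* alone in 31, both in 6 and neither in 26. The background in dermal macrophage-like cells was 1.70% for *Cd163l1* and 1.46% for *5830411N06Rik*. Among 118 dermal receptor-rich cells with *Trac* and no *Trdc* UMI, 12 held *5830411N06Rik* (10.2%, 5.37 to 17.1%) and 2 held *Cd163l1* (1.69%). *Trdv4* gave 25 UMIs per 1019 *Trdc* UMIs with *Cd163l1* alone (2.45 per 100, 1.59 to 3.62), 11 per 259 with neither (4.25, 2.12 to 7.60) and 0 per 280 with *5830411N06Rik* alone, which allows up to 1.07 per 100. All 37 cells with *5830411N06Rik* together held 0 *Trdv4* UMIs for 327 *Trdc* UMIs, which allows up to 0.917 per 100.

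Counted by cells, of 19 dermal *Trdc*+ cells with *Trdv4*, 15 held *Cd163l1* (78.9%, 54.4 to 93.9%) and 0 held *5830411N06Rik*, which allows up to 15.8% of cells with a UMI and sets no limit on cells that express it at a lower level. Of 88 without *Trdv4*, 35 held *Cd163l1* (39.8%) and 37 held *5830411N06Rik* (42.0%, 31.6 to 53.0%). Cells with *Trdv4* had similar depth, with medians of 11176 and 9758.5 UMIs, but more *Trdc*, at a mean of 35.1 against 10.7 UMIs per cell, and *Trac* was found in 7 of 19 against 12 of 88. With at least 10 *Trdc* UMIs required, 13 of 15 cells with *Trdv4* held *Cd163l1* and 0 held *5830411N06Rik*, against 18 and 11 of 37 without. Without cells holding a *Trac* UMI, the counts were 10 and 0 of 12 against 32 and 29 of 76. These settings were added after the data were seen. In epidermis, 16 of 123 *Trdc*+ cells with *Trdv4* held *Cd163l1* (13%) and 31 of 343 without (9.04%), and *5830411N06Rik* was found in 0 and 6.

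The share of *Tcrg-C2* UMIs differed along the same split. *Tcrg-C2* gave 31.9% of γ constant UMIs in dermal cells with *5830411N06Rik* alone (45 of 141, 24.3 to 40.3%). It gave 17.8% with *Cd163l1* alone (59 of 331, 13.9 to 22.4%) and 5.83% with neither (6 of 103, 2.17 to 12.2%). The 3 intervals lay apart, and the last met the epidermal 5.52%. Relative to *Trdc*, *Tcrg-C2* gave 16.1, 5.79 and 2.32 UMIs per 100 in these groups, and *Tcrg-C1* 29.3, 23.7 and 33.6. By CPM, *Tcrg-C2* stood at 106 (77.6 to 142), 116 (88.5 to 150) and 27.3 (10.0 to 59.3) in the same order. *Tcrg-C1* stood at 194, 475 and 395 CPM and *Trdc* at 662, 2007 and 1176. Between cells with *5830411N06Rik* alone and with *Cd163l1* alone, *Tcrg-C2* itself was thus nearly even, while *Tcrg-C1* and *Trdc* differed. The 5 epidermal cells with *5830411N06Rik* alone held 5 *Tcrg-C2* among 15 γ constant UMIs (33.3%, 11.8 to 61.6%), the 6 dermal cells with both genes 7 among 20 (35%, 15.4 to 59.2%), and the 46 epidermal cells with *Cd163l1* alone 18 among 286 (6.29%, 3.77 to 9.76%).

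**Figure D4:**
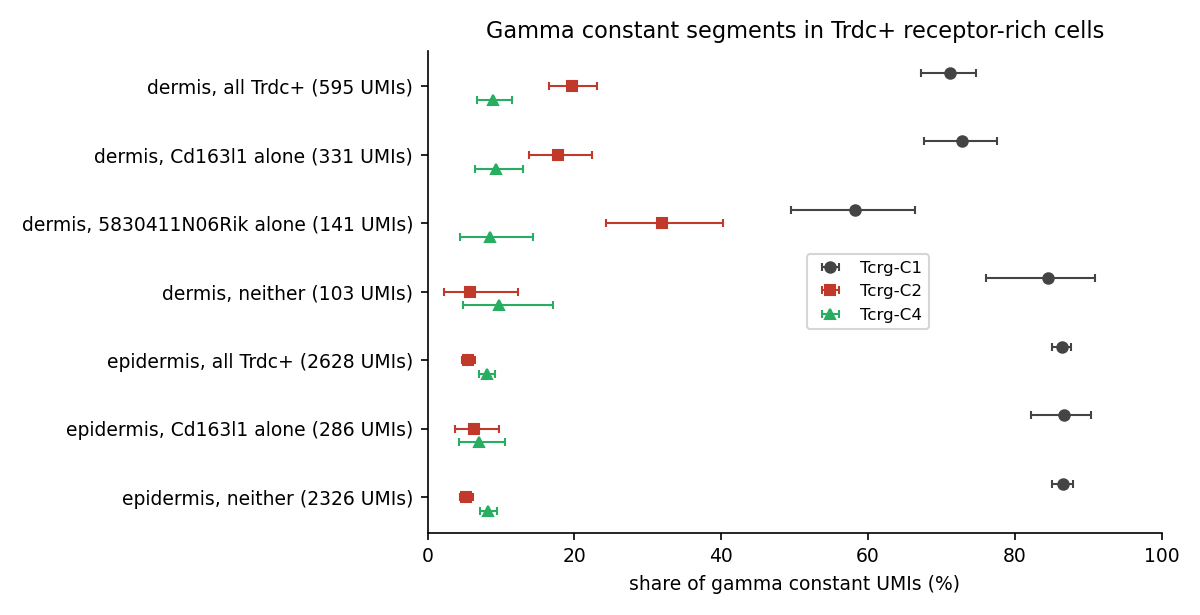
Share of γ constant UMIs given by *Tcrg-C1* (circles), *Tcrg-C2* (squares) and *Tcrg-C4* (triangles) in *Trdc*+ receptor-rich cells, by layer and by the scavenger receptor genes found in the cell, with exact 95% intervals. Of the 7 groups drawn, *Tcrg-C2* lies highest in dermal cells with *5830411N06Rik* alone, at 31.9%, and at 5.83% or less in dermal cells with neither gene and in the epidermal groups of all cells and of cells with neither.

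To set the segments beside the known programs of both kinds of γδ T cell, lists of genes named for these programs were compared between dermal and epidermal *Trdc*+ cells. The lists were chosen with earlier results of these data known. Of 19 tested genes of a list of type 17 cells, 17 were at least 2-fold higher in dermis and 0 in epidermis. Of all 8071 genes tested, 8.19% were at least 2-fold higher in dermis and 26% in epidermis. The median log2 ratio was 2.59 over the listed genes and -0.46 over all genes. *Il17a* had 1820 UMIs in 38 dermal and 318 in 11 epidermal cells, 6.36-fold higher by CPM in dermis (5.65 to 7.19). *Il22* was 6.91-fold (6.23 to 7.67), the chemokine receptor *Ccr2* 16.1-fold (9.96 to 27.5) and the kinase *Blk* 6.77-fold higher (4.69 to 10.0). *Sox13*, a transcription factor of IL-17-producing γδ T cells, had 18 UMIs in dermis and 0 in epidermis, at least 6.67-fold higher against 3 counts. *Cd163l1* was 4.08-fold and *5830411N06Rik* 6.35-fold higher in dermis. The cytokine ratios rest in part on single cells, since 1 cell held 739 of the dermal *Il17a* UMIs. Macrophage markers summed to 1134 CPM in dermal and 22.2 CPM in epidermal *Trdc*+ cells. Of the 21 listed genes, 17 were at least 2-fold higher in dermal gated cells than in the other dermal cells, and 4 were not. Whether transcripts of other cells contributed to the dermal counts of type 17 genes, *Ccr2* among them, was not tested.

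Of 18 tested genes of a list of dendritic epidermal T cells, 12 were at least 2-fold higher in epidermis and 4 in dermis. Of all genes tested, 26% and 8.19% were. The median log2 ratio over the listed genes was -2.17. *Cd160* and *Kir3dl1* reached 20 UMIs only through epidermis, with 7 and 4 dermal UMIs. *Ccl3* and *Ccl4* did so only through dermis, with 5 and 13 epidermal UMIs. The counts and the median of this list are therefore a description too. *Cd7* stood at 5018 CPM in epidermis, 17.6-fold above dermis (15.8 to 19.7), and was found in 95.5% against 28% of cells. *Ctla2a* was 22.9-fold (19.9 to 26.5), *Nkg7*, of cytotoxic granules, 17.1-fold (15.0 to 19.7), and the killer receptor *Kir3dl1* 37.1-fold higher (14.2 to 138). *Klrk1*, which encodes the NKG2D receptor, was 5.37-fold higher (4.50 to 6.43). The 4 genes higher in dermis were *Ccl3*, *Ccl4*, *Tyrobp* and *Gzmb*. *Tyrobp* was found in all 1237 dermal macrophage-like cells and *Ccl3* in 80.4%. The macrophage markers given above were present in the dermal *Trdc*+ cells. Whether macrophage transcripts contributed to the dermal counts of these 4 genes was not tested. The dermal *Trdc*+ cell richest in *Gzmb* held 378 of the 767 *Gzmb* UMIs in that group. All 4 genes of the CD3 complex were at least 2-fold higher in epidermis, where 26% of all genes were, but *Cd3d*, *Cd3e* and *Cd3g* had been used to choose the cells, so these 3 are a description. *Cd247* was not used. In the same comparison 0 of the 3 α and β constant genes differed by 2-fold. *Trbc1* and *Trbc2* were found in 66.4% and 82.2% of dermal and 61.8% and 76.4% of epidermal *Trdc*+ cells, and *Trac* in 17.8% and 9.44%.

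**Figure D5:**
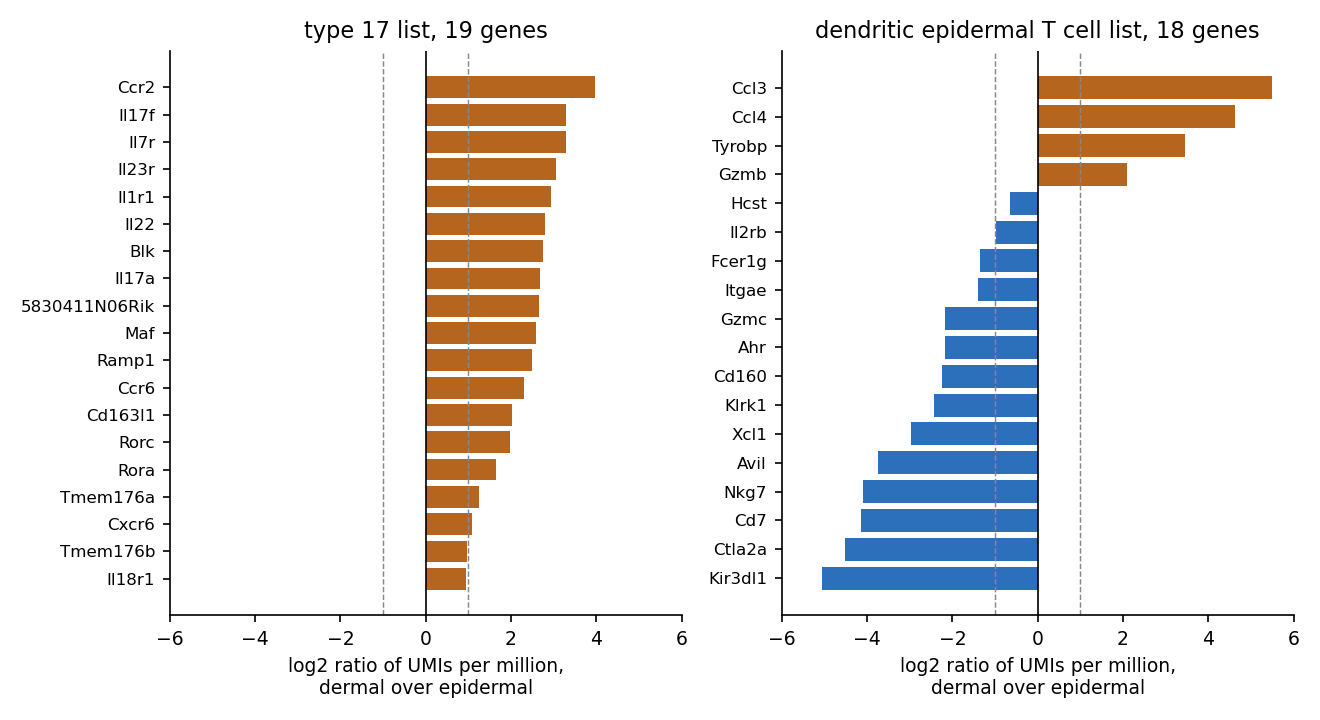
Log2 ratio of CPM, dermal over epidermal *Trdc*+ receptor-rich cells, for the tested genes of a type 17 list on the left and a dendritic epidermal T cell list on the right, with dashed lines at a 2-fold difference in either direction. All 19 bars on the left point to dermis, 17 of them past the line, and on the right 4 genes lie past the line to dermis and 12 to epidermis. Of all 8071 genes tested, 8.19% lay past the line to dermis and 26% to epidermis.

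Within dermis, some genes of both program lists differed between the groups that differed in *Trdv4* and in the share of *Tcrg-C2*. *Il17f* was found in 79.5% of cells with *Cd163l1* alone, 80.6% with *5830411N06Rik* alone and 11.5% with neither, and *Blk* in 79.5%, 80.6% and 7.69%. The chemokine receptor *Ccr6* was found in 20.5%, 74.2% and 7.69%. *Cd7* was found in 15.9%, 25.8% and 53.8%, and *Ctla2a* in 15.9%, 22.6% and 61.5%. Among cells with neither gene, fewer held these type 17 genes and more held *Cd7* and *Ctla2a*, and of the 3 groups their *Tcrg-C2* share lay nearest to that of epidermis. Their median was 7782 UMIs, against 9546.5 and 11031 in the other groups.

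Genes whose detection was most like that of a segment were sought by the phi coefficient over gated cells thinned to 1000 UMIs, as a description over 1017 epidermal cells of 1 library. For *Trdc* these were *Cd7* (0.87), *Nkg7* (0.84), *Cd3g* (0.84), *Ctla2a* (0.83) and *Fcer1g* (0.79), and for *Tcrg-C1* the same 5 genes at 0.73 to 0.79. *Trdc* and *Cd3g* were part of the gate, which also held the deep, *Cd3*-poor cells. For *Tcrg-V4* and *Tcrg-V5*, with 2 and 6 cells in the thinning draw used here, each leading gene shared 1 cell with the segment. For *Tcrg-V6*, taken in dermis, 0 of 401 cells held it in this draw. In the draw used for detection, 8 epidermal gated cells held *Tcrg-V5* and 1 dermal gated cell held *Tcrg-V6*. Over 261 dermal receptor-rich cells, *Trdc* went most with *Cd163l1* (0.40). Over 507 epidermal receptor-rich cells the values were lower than over the gate. There *Trdc* went most with *Cd7* (0.46), *Fcer1g* (0.39), *Nkg7* (0.37), *Cd3g* (0.35) and *Cd3e* (0.32), and *Tcrg-C1* with *Cd7* (0.37).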

How the data were processed

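Droplet 3′ RNA sequencing was done on 1 dermal and 1 epidermal library. Per the file headers and labels, the authors made the deposited counts of UMIs per gene and barcode with CellRanger 3.0.2 on mm10. Replicates were neither given nor pooled, and the labels do not say how many animals went into a library. Matrices were read in Python 3.11.15 with scipy 1.17.1, numpy 2.4.6 and pandas 2.3.3, and figures drawn with matplotlib 3.10.9.

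UMIs were summed over cells of each group and divided by all their UMIs to give counts per 1000000 (CPM). Shares have exact Clopper-Pearson intervals, levels exact Poisson intervals and ratios exact conditional binomial intervals, all at 95%. They cover counting error only. A ratio was counted for genes with at least 20 UMIs in both groups together, with a pseudocount of 0.5 UMI on the log2 scale and a threshold of 2-fold. Limits for a count of 0 use 3 counts. Thinning drew 1000 UMIs per cell without replacement, and phi used draws separate from that for detection. Macrophage-like and keratinocyte-like cells outside the gate had at least 3 of 6 markers with at least 2 and 10 UMIs. Doublets were kept, and removed in an alternative by Scrublet score (scanpy 1.11.5) at 0.8% per 1000 cells. The log2 ratio and the intervals were tested on simulated counts drawn independently. How the intervals hold for UMIs clustered in cells, and the other steps, were not tested in this way.

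The genes named are the members, other γ and δ segments, the listed program, CD3, constant and co-receptor genes and the 5 genes most like a segment by phi. Phi for *Trdc* and *Tcrg-C1* in receptor-rich cells was added. The members and lists were chosen with earlier results of these data known. Alternatives changed the gate, filters, depth, scaling, pseudocount and minimum count, and those with a threshold in CPM were chosen after seeing the data. Of the co-receptor list, 0 of 6 genes reached 20 UMIs in *Trdc*+ cells.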

Additional observations from a re-analysis of the deposited data

Results flagged for a closer look

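Cells that failed the filters, which no comparison above uses, held more UMIs of *Trdc*, *Tcrg-C1* and *Tcrg-C2* by CPM than dermal macrophage-like cells (in dermis) or epidermal keratinocyte-like cells (in epidermis). In dermis 629 barcodes failed, with 19 UMIs of *Trdc* in 13 cells (22.0 CPM), 6 of *Tcrg-C1* and 4 of *Tcrg-C2*. In epidermis 1085 failed, with 111 UMIs of *Trdc* in 58 cells (29.7 CPM), 35 of *Tcrg-C1* and 4 of *Tcrg-C2*. The comparison is limited, since the macrophage-like and keratinocyte-like cells lie outside the gate and so hold at most 1 *Trdc* UMI each. Cells that failed were not gated, and 17 dermal and 19 epidermal ones held enough *Trdc* or *Cd3* UMIs for the gate. The higher CPM of *Trdc*, *Tcrg-C1* and *Tcrg-C2* is therefore a description. *Tcrg-C4* had 0 UMIs in the dermal and 2 in the epidermal cells that failed.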

How the results depend on the processing

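No paired analysis was possible because with 1 library per layer no samples could be paired. The gate of 405 dermal cells became 141 with *Trdc* alone and, chosen after seeing the data, 265 and 151 at 1000 and 2000 CPM of receptor transcripts and 107 with *Trdc* added. The 1035 epidermal cells became 555 with *Trdc* alone, 389 with a *Ptprc* UMI, 536, 525 and 507 at 500, 1000 and 2000 CPM, and 466 with *Trdc* added.

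The log2 ratios of CPM over the whole gate, dermal over epidermal, were 0.40 for *Trdc*, 0.16 for *Trdv4*, 0.09 for *Tcrg-C1*, 2.35 for *Tcrg-C2* and 0.80 for *Tcrg-C4*, and in that order they reversed as follows. With *Trdc* alone they were -0.30, -0.44, -0.83 and, for *Tcrg-C4*, -0.34. With a *Ptprc* UMI they were -2.35, -2.57, -2.50, -0.19 and -1.71. With the study's filters they were -0.94, -1.28, -1.34 and, for *Tcrg-C4*, -0.54. At 500 CPM they were -2.62, -2.87, -2.89, -0.61 and -2.18, at 1000 they were -2.60, -2.82, -2.91, -0.69 and -2.20, and at 2000 they were -2.02, -2.02, -2.52, -0.46 and -2.17. At 1000 CPM with *Trdc* they were -1.80, -1.93, -2.27, -0.16 and -1.84, and as means of per-cell values -2.46, -2.43, -2.76, -0.62 and -2.32. *Trdv4* also fell to -0.047 without the top doublet scores and to -0.073 without the dermal cell richest in it. The cause of these reversals was not tested.

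Cells with a γ V segment fell from 5 to 3 in dermis with *Trdc* alone, at 2000 CPM and at 1000 CPM with *Trdc*. With at least 2 V UMIs they fell to 1 in dermis and from 32 to 1 in epidermis, so constant segments and program genes by V class could not be compared at that setting. Genes at least 2-fold higher in dermis rose from 3059 to 5769 with a minimum of 1 UMI. Members at least 2-fold apart went from 2 to 1 with a minimum of 50 UMIs and to 5 at 1000 CPM, with or without *Trdc*. In the main setting 6 members were tested, and 24.6% of all genes were higher in dermis and 21.5% in epidermis. At 1000 CPM with *Trdc*, 6 were tested, and these shares were 8.19% and 26%. No share of all genes was taken at the other settings, so these counts of members are a description.

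The epidermal *Tcrg-V5* share and the dermal *Tcrg-C2* share stayed within their main intervals under the alternatives run. Shares of γ constant UMIs did so in 63 of the settings and moved in 3, and detection moved in 102 and not in 132. The dermal *Tcrg-V6* share, 33.3% of 6 γ V UMIs, became 0 of 4 without the 1 cell that held both of its UMIs.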
